A study of Mus musculus with 48 samples.

Results

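The sensors and factors of the unfolded protein response were followed through 48 hourly liver pools. The set held 10 genes, taken by the gene symbol of the array annotation: the sensors Ern1, Eif2ak3, Atf6 and Atf6b, the transcription factors Xbp1, Atf4, Ddit3, Creb3l2 and Creb3l3, and the pseudokinase Trib3. The array carried 26 probe sets for them out of 45101, none of which named a further gene, and the 10 genes stood among 18194 genes that could be read. Livers came from wild type male C57BL/6J mice, 6 weeks old, which had been entrained to 12 h of light and 12 h of darkness and were then kept in constant darkness without any other treatment. At every hour from CT18 to CT65 (circadian time, with CT0 at subjective dawn and CT12 at subjective dusk), liver from 3 to 5 mice was pooled and hybridised to 1 Affymetrix mouse array. CT42 to CT65 make up the second circadian cycle and CT18 to CT41 the first. No hour was sampled by a further pool within a cycle, so the errors and p-values below measure the spread of single pools around a fitted curve. In pooled tissue, fewer cells of a type and less RNA per cell cannot be told apart.

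The endoplasmic reticulum (ER) folds secreted and membrane proteins, a heavy load in hepatocytes, which secrete most plasma proteins. Unfolded proteins activate sensors in its membrane: IRE1alpha (Ern1) splices Xbp1 mRNA so that it encodes an active factor, PERK (Eif2ak3) phosphorylates the translation factor eIF2alpha, which slows translation in general but favours that of Atf4, and ATF6 and its paralogue ATF6B travel to the Golgi, where proteases release their factor domain. XBP1 and ATF6 are known to induce chaperones and degradation of misfolded proteins, and ATF4 to induce Ddit3 (CHOP) and Trib3. CREB3L2 and CREB3L3 (CREBH) are ER-anchored factors released in the manner of ATF6. The array reads total mRNA, so splicing of Xbp1, cleavage of ATF6 and phosphorylation of PERK were not measured.

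Because Eif2ak3 and Creb3l2 moved together and Ddit3 and Trib3 moved in opposition, the sequence before the start of these genes is shown (RefSeq, GRCm38.p6, 5′ to 3′ on the strand of the gene, with CCAAT boxes on either strand, CCAAT or ATTGG, in capitals). Eif2ak3 lies at chr6:70844484-70905241, Creb3l2 at chr6:37327255-37442276, Ddit3 at chr10:127290793-127296291 and Trib3 at chr2:152337425-152344060. The stretches shown end where the annotated gene begins and cover chr6:70844265-70844483 (plus strand), chr6:37442277-37442398 (minus strand), chr10:127290543-127290792 (plus strand) and chr2:152344061-152344310 (minus strand).
Eif2ak3: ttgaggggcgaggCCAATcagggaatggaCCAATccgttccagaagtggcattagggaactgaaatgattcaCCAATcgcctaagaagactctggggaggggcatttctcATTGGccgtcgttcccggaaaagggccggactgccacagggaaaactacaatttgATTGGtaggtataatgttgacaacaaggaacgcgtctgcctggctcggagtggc
Creb3l2: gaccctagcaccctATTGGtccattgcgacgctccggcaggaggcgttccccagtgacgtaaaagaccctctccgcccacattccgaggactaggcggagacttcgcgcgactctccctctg
Ddit3: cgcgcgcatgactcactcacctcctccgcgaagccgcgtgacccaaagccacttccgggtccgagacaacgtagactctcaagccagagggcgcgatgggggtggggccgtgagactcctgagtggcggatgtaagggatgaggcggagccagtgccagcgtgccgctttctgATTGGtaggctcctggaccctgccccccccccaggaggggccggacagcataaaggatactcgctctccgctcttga
Trib3: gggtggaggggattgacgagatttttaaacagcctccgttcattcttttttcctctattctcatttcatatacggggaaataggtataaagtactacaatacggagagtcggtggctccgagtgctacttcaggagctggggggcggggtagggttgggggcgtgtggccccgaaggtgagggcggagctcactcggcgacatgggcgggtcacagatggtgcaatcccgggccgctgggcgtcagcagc
In the whole 250 bases before the transcript starts of RefSeq, Eif2ak3 held 6 CCAAT boxes, of which 5 lie in the stretch shown, and Creb3l2 held 2, of which 1 is shown. Ddit3 held 1 and Trib3 none. Boxes were also found where no 12 or 8 h term was called, 2 in Atf4 and 1 in Atf6b, and none in Ern1 and Xbp1. Creb3l3, also without such a term, held a box in a window at chr10:81092542, inside the annotated gene, and none in the window before the gene. At least 1 CCAAT box was found in 33.8% of 32851 mouse promoter windows of this length, at least 2 in 10.1% and at least 6 in 0.0578%. The ER stress response element (ERSE, a CCAAT box with a CCACG motif at a set distance), the core of the unfolded protein response element (TGACGTGG), the cyclic AMP response element (TGACGTCA), the C/EBP-ATF element (TGATGNAA) and the D-box (TTATGNAA) were searched on both strands. Only exact letters counted, so elements with a base changed, as functional ones can have, would be missed. These 5 elements matched in none of the windows of the 10 genes that the table holds. They occur in 0.113%, 0.563%, 1.55%, 3.45% and 3.07% of all windows. The E-box CACGTG, at 6.02% of all windows, was found in that of Atf6b. Atf6 has no window in the table. These letters describe the windows and do not show binding.

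Some pools stood apart in the array data. CT60 to CT65 had median correlations with the other arrays of 0.984 to 0.990, against 0.989 to 0.995 in the pools before CT60, and the lowest value belonged to CT61. The upper quartile of the intensities ran from 797 to 839.5 over CT61 to CT65 and from 891 to 1099 in the pools before them. Pancreatic acinar markers were high in 2 pools: their summed intensity (Cela1, Ctrb1, Prss2, Cpa1 and Cel, 5 of the 7 listed) was 328512 at CT25 and 99201 at CT46, against 4488 to 9074 in the other 46. Ctrb1, the chymotrypsinogen gene, read 41275 and 7524 there and 56.0 to 64.4 elsewhere. Of 6 plasma cell markers, the other secretory cell type looked for, 5 had a mean intensity under 100, near the floor of the array. The hepatocyte markers summed to 3.09e+06 at the lowest and 3.41e+06 at the highest.

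Of the 10 genes, 7 had a 24 h term, 4 a 12 h term and 2 an 8 h term that passed the test. Each log2 profile was fitted with a linear trend and cosine and sine pairs at 24, 12 and 8 h together. A term was called where the moderated F-test of its pair in limma gave an adjusted p under 0.05 (Benjamini-Hochberg over all 45101 probe sets), and the probe set with the highest mean intensity stood for its gene. Over all 18194 genes, 52.7% were called at 24 h, 7.13% at 12 h and 2.13% at 8 h. The median amplitude of the 10 genes (from the fitted mean to the fitted peak, on the log2 scale) was 0.18 at 24 h, 0.19 at 12 h and 0.10 at 8 h, against 0.06, 0.04 and 0.04 over all genes. Their median share of the variance left after the trend was 16.82%, 7.999% and 5.098% at 24, 12 and 8 h. Over all genes it was 16.39%, 3.383% and 4.534%, so that by this measure the gap was widest at 12 h. That 12 h median of the 10 genes lies between Trib3 (9.55%) and Creb3l3 (6.45%), whose 12 h term was not called, and the gap was not tested. All genes include dim ones near the floor of the array, and the part of brightness in the amplitude gap was not tested. Without CT25 and CT46 the counts were 6, 4 and 2, with Creb3l2 no longer called at 24 h (adjusted p = 0.0509), and without CT60 to CT65 they were 5, 5 and 2, with Ern1 and Creb3l2 lost at 24 h and Atf6b added at 12 h.

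Sensors and transcription factors were spread over all the terms. Of the 4 sensors, Ern1 and Atf6 were called at 24 h, and Eif2ak3 at 12 and 8 h. Atf6b was called at none. Of the 5 transcription factors, Atf4, Ddit3, Creb3l2 and Creb3l3 were called at 24 h, Ddit3 and Creb3l2 at 12 h and Creb3l2 at 8 h, while Xbp1 was called at none. The median amplitudes of the sensors were 0.18, 0.19 and 0.14 at 24, 12 and 8 h, and those of the transcription factors 0.16, 0.09 and 0.10. With 4 and 5 genes the difference between these classes was not tested.

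**Figure D1:**
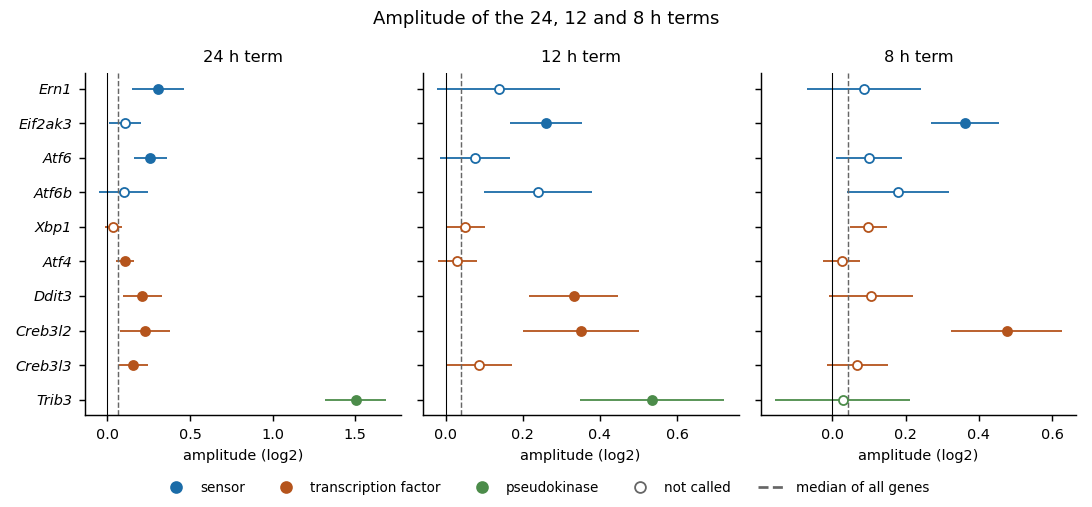
Amplitude (log2) of the 24, 12 and 8 h terms of each gene in 48 pools, from the probe set of highest mean, with 95% intervals; filled circles passed the test, open circles did not, and dashed lines mark the median of all genes. Trib3 has the largest 24 h amplitude (1.50) and Creb3l2 the largest 8 h amplitude (0.48) of the 10 genes.

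Eif2ak3, which encodes PERK, carried the most significant 8 h term of the set. Its intensity was 736 at the lowest (CT61), 1255 at the median and 2605 at the highest (CT25). Around fitted peaks of its 8 h term, the mean was 2318 ± 260 over CT24 to CT26 (SD, n = 3) and 1575 ± 228 over CT32 to CT34. Over CT48 to CT50 it was 1776 ± 116 and over CT56 to CT58 1381 ± 446. Around fitted troughs it was 1084 ± 61.3 (CT20 to CT22), 943 ± 159 (CT28 to CT30), 850 ± 93.5 (CT44 to CT46), 998 ± 45.2 (CT52 to CT54) and 1038 ± 335 (CT60 to CT62). The remaining fitted peak, near CT41.4, averaged 1260 ± 99.7 (CT40 to CT42), not above the fitted trough before it, at 1405 ± 260 (CT36 to CT38). These hours were set by the fit that called the term, so the means describe the fit and add no further support. The amplitude at 8 h was 0.36 ± 0.05 (SE, a fitted 1.65-fold from trough to peak), with the first peak 1.42 ± 0.17 h after CT0 (limma adjusted p = 0.000147), and the term took up 43.6% of the variance left after the trend. A 12 h term of 0.26 ± 0.05 peaked 0.50 ± 0.36 h after CT0 (limma adjusted p = 0.00119), and the 24 h term, at 0.11 ± 0.05, was not called (limma adjusted p = 0.165).

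Creb3l2, an ER-anchored factor known in mice for secretory load in cartilage, followed a similar profile over a wider range. It read 205 at the lowest (CT61), 485 at the median and 1455 at the highest (CT26). Means of 3 pools around its fitted 8 h peaks were 994 ± 420 (CT25 to CT27), 630 ± 85.8 (CT33 to CT35), 523 ± 122 (CT41 to CT43), 769 ± 152 (CT49 to CT51) and 691 ± 173 (CT57 to CT59), and those around its troughs lay between 264 ± 59.2 and 499 ± 160 (SD, n = 3). Each peak mean was thus above each trough mean, with the run at CT41 to CT43 nearest to the troughs. The hours were set by the fit that called the term, so this order describes the fit and adds no further support. Its 8 h amplitude was 0.48 ± 0.08 with a peak at 1.79 ± 0.21 h (limma adjusted p = 0.00222), its 12 h amplitude 0.35 ± 0.08 with a peak at 0.09 ± 0.43 h (limma adjusted p = 0.00937). The 24 h term was weaker, at 0.23 ± 0.08 (limma adjusted p = 0.0429), and its call was lost when any 1 of 22 of the pools was left out, with an adjusted p of up to 0.0932 (without CT65).

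Over the 48 pools and after removal of the trend, Eif2ak3 and Creb3l2 correlated at Pearson's r = 0.83 and Spearman's rho = 0.84, as a description of pools that share arrays and hours. Without the 2 pools farthest from the median r was 0.83, and without CT60 to CT65 also 0.83. In the 8 h term the peak of Eif2ak3 minus that of Creb3l2 was -0.37 h (95% interval -0.72 to -0.03 h), with an upper end close to 0. The other probe set of Creb3l2 peaked at 1.33 ± 0.32 h, beside 1.42 ± 0.17 h for Eif2ak3, in a term that was not called. In the 12 h term the same difference was 0.41 h, with an interval from -0.29 to 1.11 h that includes 0. Each of these 12 and 8 h calls held when any single pool was left out. With CT25 and CT46 left out, the pools with high acinar markers, the 8 h terms kept their calls, at limma adjusted p = 0.00118 for Eif2ak3 and 0.00668 for Creb3l2. At CT25 Eif2ak3 read 2605 and at CT46 742, against 736 to 2254 in the other 46 pools.

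Series of every second pool, with 24 pools each, gave similar peak times without the calls. From CT18 the 8 h amplitude of Eif2ak3 was 0.42 ± 0.07 with a peak at 1.46 h (limma adjusted p = 0.0834), and from CT19 it was 0.31 ± 0.06 with a peak at 1.36 h (adjusted p = 0.421). In these series 0 of 18194 genes were called at 8 h, while 1681 and 2151 genes had an unadjusted p under 0.05. With the 8 h pair fitted without the other pairs, Eif2ak3 was called (adjusted p = 0.0126) and Creb3l2 was not (adjusted p = 0.0615).

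**Figure D2:**
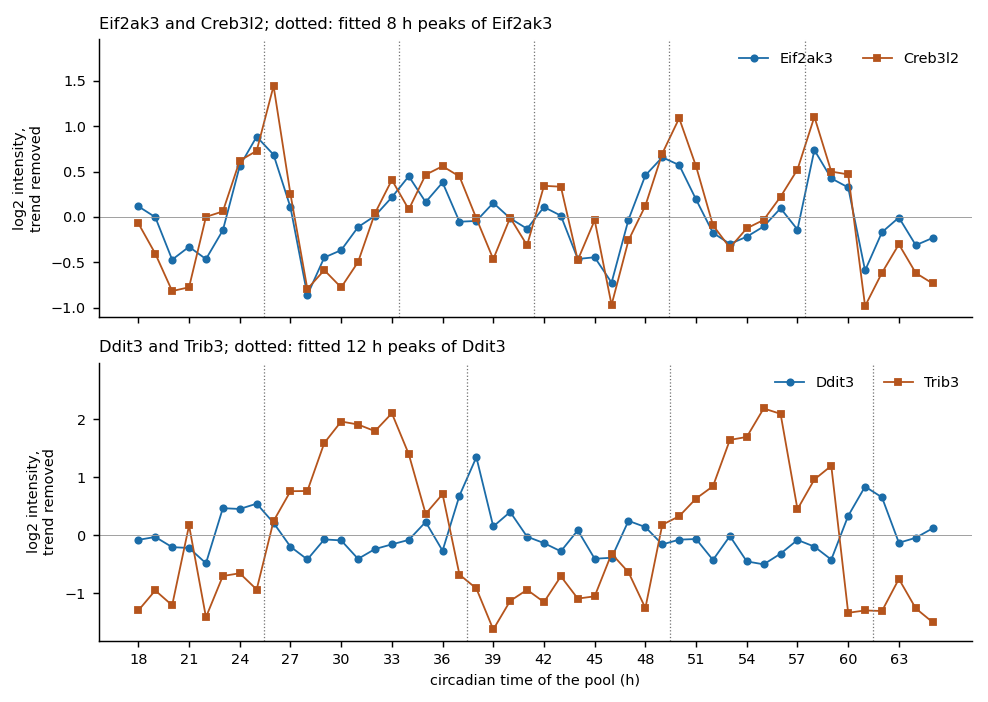
Log2 intensity with the linear trend removed, by circadian time of the pool, of Eif2ak3 (circles) and Creb3l2 (squares) above, and of Ddit3 (circles) and Trib3 (squares) below; each point is 1 pool, and dotted lines mark the fitted 8 h peaks of Eif2ak3 and 12 h peaks of Ddit3. Eif2ak3 and Creb3l2 move together (r = 0.83), while Ddit3 is high where Trib3 is low, near CT38 and CT61.

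Ddit3, the gene of the proapoptotic factor CHOP, was the one transcription factor in the 12 h class by both period tests described below. Its intensity was 932 at the lowest (CT22), 1246 at the median and 3355 at the highest (CT38). The 4 fitted peaks averaged 1736 ± 199 (CT24 to CT26), 2190 ± 1131 (CT36 to CT38), 1310 ± 142 (CT48 to CT50) and 2075 ± 358 (CT60 to CT62), and the 4 troughs 1210 ± 74.4, 1113 ± 122, 1237 ± 159 and 1001 ± 67.5 (SD, n = 3). All peak means were above all trough means, at hours set by the fit that called the term, so this adds no further support. In both cycles the mean soon after subjective dusk was the higher of the pair, with CT38 above all other pools and an SD of 1131 around it. The 12 h amplitude was 0.33 ± 0.06 with a peak 1.45 ± 0.33 h after CT0 and after CT12 (limma adjusted p = 0.000662), and it took up 37.0% of the variance. A 24 h term of 0.21 ± 0.06 peaked at CT14.9 ± 1.11 h (limma adjusted p = 0.0159), and the 8 h term, at 0.11 ± 0.06, was not called (adjusted p = 0.606).

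Trib3, a pseudokinase induced by ATF4 and CHOP that is known to restrain AKT, had the largest 24 h amplitude of the set. It read 137 at the lowest (CT65), 314 at the median and 1897 at the highest (CT33). Around its fitted 24 h peaks, means were 1650.5 ± 103 at CT30 to CT32 and 1622 ± 275 at CT54 to CT56 (SD, n = 3). Around the fitted troughs they were 212 ± 26.8 at CT18 to CT20 and 217 ± 37.6 at CT42 to CT44. These hours were chosen by the fit that called the term, so the gap is no further support. The 24 h amplitude was 1.50 ± 0.09, a fitted 8.04-fold change, with a peak at CT6.60 ± 0.26 h (limma adjusted p = 9.27e-16), and it took up 76.8% of the variance. Its 12 h term (0.54 ± 0.10, peak at 7.41 ± 0.34 h, limma adjusted p = 0.000723) coincided with this daily peak, while its other peaks, near CT19.4 and CT43.4, fell in pools at the low level of 212 and 217, so that it appeared as a narrower daily peak and a broader trough. Its other probe set gave a 24 h amplitude of 1.17 ± 0.09 and a 12 h amplitude of 0.59 ± 0.09, both called, and followed it at r = 0.90.

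The 12 h terms of Ddit3 and Trib3 were opposed. The peak of Ddit3 minus that of Trib3 was -5.96 h (95% interval -6.72 to -5.20 h), about as far apart as a 12 h cycle allows. At 24 h the peak of Ddit3 followed that of Trib3 by 8.27 h (6.14 to 10.4 h), and over the 48 pools the detrended values correlated at r = -0.48 (Spearman's rho = -0.49, and r = -0.48 without the 2 farthest pools). The summed stellate cell markers moved with Trib3 (r = 0.57) and against Ddit3 (r = -0.46), and their part in this was not tested. Of the 6 pairs among the 4 genes called at 12 h, 4 had peak differences whose interval excluded 0, and Eif2ak3 minus Ddit3, at -0.95 h (-1.91 to 0.01 h), did not. The intervals were not adjusted for the number of pairs.

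**Figure D3:**
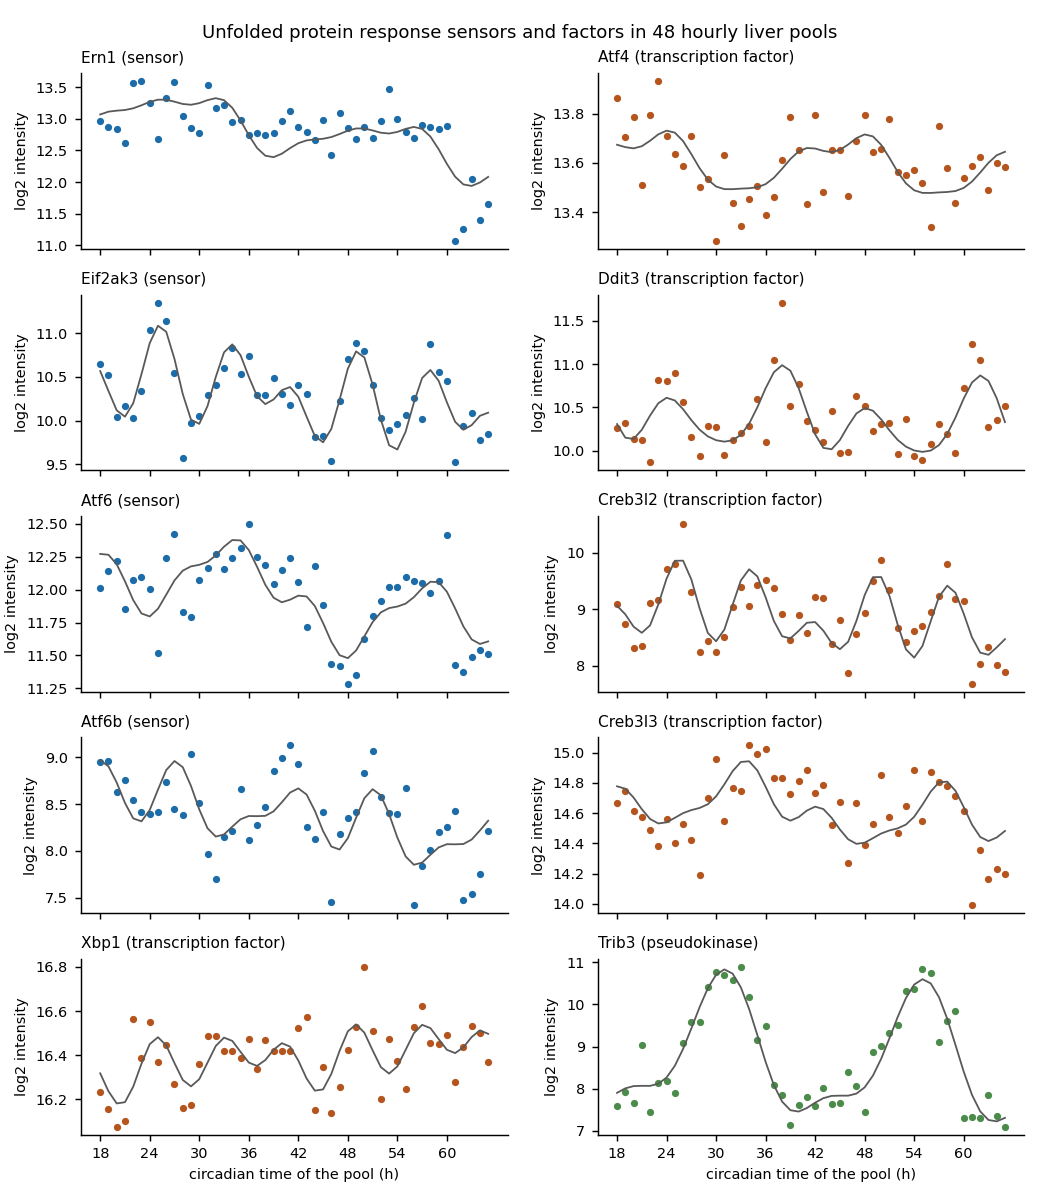
Log2 intensity of each gene in the 48 hourly pools (points) with the fitted trend and 24, 12 and 8 h terms (line), by circadian time of the pool. Trib3 spans the widest range (137 to 1897) and Xbp1 one of the narrowest (69037 to 114146), and CT61 is the lowest pool of Ern1 and of Creb3l3.

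Of the remaining sensors, Atf6 and Ern1 were called at 24 h. Atf6 read 2496 at the lowest (CT48), 4233 at the median and 5781 at the highest (CT36). Its 24 h amplitude was 0.26 ± 0.05 with a peak at CT10.7 ± 0.67 h (limma adjusted p = 0.000309), and its 12 and 8 h terms were not called (adjusted p = 0.827 and 0.505). Ern1 read 2153 (CT61), 7453 and 12349 (CT23), with a 24 h amplitude of 0.31 ± 0.08 and a peak at CT4.45 ± 1.07 h (limma adjusted p = 0.00872). Without CT60 to CT65 it was not called (adjusted p = 0.215). Atf6b, the paralogue that forms a weaker activator than ATF6, read 171 (CT56), 340 and 560 (CT41), and none of its terms was called. Its 12 h amplitude was 0.24 ± 0.07 with a peak at 3.94 ± 0.57 h (adjusted p = 0.104), and without CT60 to CT65 that term passed at an adjusted p of 0.00301.

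Among the factors, Xbp1 had the smallest 24 h amplitude. It read 69037 at the lowest (CT20), 87689 at the median and 114146 at the highest (CT50), a 1.65-fold range. The 24 h amplitude was 0.04 ± 0.03 (limma adjusted p = 0.486), the 12 h amplitude 0.05 ± 0.03 (adjusted p = 0.669) and the 8 h amplitude 0.10 ± 0.03 with a peak at 0.76 ± 0.34 h (adjusted p = 0.0902). The 8 h value passed in 1 of 48 fits that left out a single pool, that without CT22. The other 3 probe sets of Xbp1 had 8 h peaks from 0.60 to 0.78 h, and none of them was called. Over the pools Xbp1 correlated with Creb3l2 at r = 0.63 (rho = 0.61, 0.56 without the 2 farthest pools) and with Eif2ak3 at r = 0.54 (rho = 0.51, 0.54 without them).

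Atf4, the factor translated when eIF2alpha is phosphorylated, read 9978 (CT30), 12319 and 15615.5 (CT23). Its 24 h amplitude was small, 0.11 ± 0.03, with a peak at CT21.4 ± 0.92 h (limma adjusted p = 0.00691), and its 12 and 8 h terms were not called (adjusted p = 0.962 and 0.809). At 24 h the peak of Atf4 minus that of Trib3 was -9.19 h (95% interval -10.8 to -7.52 h), and the detrended values correlated at r = -0.56 (rho = -0.55, -0.53 without the 2 farthest pools). Creb3l3, a liver factor known for control of lipid genes and fasting, read 16282.5 (CT61), 25823 and 33846 (CT34). Its 24 h amplitude was 0.16 ± 0.05 with a peak at CT10.3 ± 1.04 h (limma adjusted p = 0.0184), and it was not called without the trend (adjusted p = 0.0719). The peak of Atf6 minus that of Creb3l3 was 0.37 h (95% interval -1.62 to 2.36 h), which includes 0.

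By the period tests of the study's methods, applied here to log2 values, 5 of the 10 genes fell into a class. Fisher's G-test compares Fourier frequencies, a cosine fit searches periods of 4 to 30 h, and a gene was classed where both q-values were under 0.05. The 24 h class held Trib3 (fitted period 22.7 h) and Atf4 (25.4 h), the 12 h class Ddit3 (12.1 h), and the 8 h class Eif2ak3 (8.3 h) and Creb3l2 (8.4 h). The cosine criterion was lenient, as q could lie below the unadjusted p. For Atf4 the cosine fit gave an unadjusted p of 0.047 and a q of 0.015, and the G-test a q of 0.0449. Another Atf4 probe set had a cosine q of 0.0446 at an unadjusted p of 0.236. Over all genes 14.2%, 1.13% and 0.385% were in these classes. Each of the 48 pools was used for both this and the limma fit, so calls made by both are not independent.

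Probe sets of the same gene did not always follow each other. Besides that of Trib3, 2 of the 3 others of Xbp1 followed the brightest one closely, at r = 0.93 and 0.86, and the third at 0.38. The other of Ddit3 was at 0.44. The other probe set of Creb3l2 correlated at r = 0.52, and its 8 h term, 0.15 ± 0.04 with a peak at 1.33 ± 0.32 h, had an adjusted p of 0.0617. The 2 other bright probe sets of Atf6 correlated with the one read at r = 0.15 and -0.06, and the next brightest of Ern1 and Atf4 at 0.19 and 0.46, and none of these 4 was called at 24 h. The 24 h calls of Atf6, Ern1 and Atf4 thus came from 1 probe set each. So did the 12 and 8 h calls of Eif2ak3 and Creb3l2 and the 12 h call of Ddit3. At 12 h the other probe sets of Creb3l2 and Ddit3 had limma adjusted p of 0.258 and 0.223. The 2 other probe sets of Eif2ak3, the other of Ddit3 and 2 of Ern1 had means under 100, as had 49.5% of the array, and of these only the dimmest of Eif2ak3 was called, at 24 h with an amplitude of 0.01 (adjusted p = 0.0362).

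Genes of the response downstream of the sensors were read from lists chosen with earlier results of these data known. Of 18 chaperone and folding genes induced by XBP1 and ATF6, 17 were called at 24 h, 11 at 12 h and 4 at 8 h, and of 14 genes of ER-associated degradation 11, 4 and 3. Over all genes the shares were 52.7%, 7.13% and 2.13%. The lists' median 12 h amplitudes were 0.16 and 0.12, against 0.04 over all genes, and the part of brightness in this gap was not tested. The 12 h peak of Dnajb9, an ER co-chaperone that acts on IRE1alpha, fell 1.29 ± 0.18 h after CT0 with an amplitude of 0.66 ± 0.06 (limma adjusted p = 7.86e-09), that of Manf, a secreted ER stress protein, at 2.76 ± 0.21 h with 0.58 ± 0.06, and that of Hspa5, the chaperone BiP, at 2.70 ± 0.21 h with 0.37 ± 0.04. These have the smallest p of the list, whose 11 called genes peaked from 1.29 to 6.68 h, and those of the degradation list from 1.53 to 3.08 h. In the degradation list Edem3, which trims the glycans of misfolded proteins, peaked at 1.53 ± 0.20 h, Syvn1, the ubiquitin ligase HRD1, at 2.03 ± 0.38 h and Selenos at 2.72 ± 0.33 h. Eif2ak3, Creb3l2 and Ddit3 peaked at 0.50, 0.09 and 1.45 h in this term, and the differences from the targets were not tested. At 24 h the genes with the smallest p were the folding genes Pdia6, Ppib and Calr, which peaked at CT23.5 ± 0.56, CT1.86 ± 0.61 and CT1.63 ± 0.66 h, and the degradation genes Edem1, Erlec1 and Herpud1, which peaked at CT23.6 ± 0.47, CT10.9 ± 0.49 and CT11.6 ± 0.58 h. Atf6 itself peaked at CT10.7.

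At 8 h the called genes of both lists peaked from 1.26 to 2.03 h after CT0, beside 1.42 h for Eif2ak3 and 1.79 h for Creb3l2. Syvn1 had an amplitude of 0.58 ± 0.09 at 1.76 ± 0.21 h (limma adjusted p = 0.00213). Dnajb9 had 0.43 ± 0.06 at 1.26 ± 0.18 h and Sel1l, the partner of HRD1, 0.32 ± 0.06 at 1.86 ± 0.26 h. Among 14 translocation and transport genes induced by XBP1, 8 were called at 24 h, 6 at 12 h and 1 at 8 h. Over all genes 52.7%, 7.13% and 2.13% were called, so that the 24 h share of this list was near that of all genes. Sec23b, a COPII coat subunit, was called at 12 h (0.46 ± 0.05, peak at 2.78 ± 0.20 h) and at 8 h (0.23 ± 0.05, peak at 2.32 ± 0.28 h). The 12 h peaks of Spcs2, a signal peptidase subunit, and Srp19, of the signal recognition particle, fell at 3.33 ± 0.22 and 2.47 ± 0.27 h, and at 24 h Spcs2, Ssr1 and Ssr2 peaked at CT20.7, CT23.7 and CT19.4.

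Of 30 targets of ATF4 and CHOP, 17 were called at 24 h, 2 at 12 h and 0 at 8 h, against 52.7%, 7.13% and 2.13% of all genes, so that the shares at 24 and 12 h were near those of all genes. Atf5, a factor of the same response, had a 24 h amplitude of 0.88 ± 0.07 with a peak at CT2.97 ± 0.32 h (limma adjusted p = 3.05e-12), Gadd45a, a growth arrest gene, 0.64 ± 0.10 at CT9.82 ± 0.55 h and Ddit4, an inhibitor of mTORC1, 0.62 ± 0.08 at CT18.2 ± 0.51 h. The genes called at 12 h were Ddit4, at 0.49 ± 0.08, and Ero1a, an ER oxidase, at 0.18 ± 0.03, with peaks at 1.61 ± 0.30 and 2.10 ± 0.36 h, beside 1.45 h for Ddit3. Of 14 genes controlled by CREB3L3 in liver, 11 were called at 24 h, 3 at 12 h and 2 at 8 h, and the 12 h peaks of Ppara, Pck1 and Apoa5 fell at 8.30 ± 0.27, 8.82 ± 0.31 and 9.10 ± 0.42 h, beside 7.41 h for Trib3. At 24 h Lpl (0.70 ± 0.05, CT2.99), Bdh1 (0.28 ± 0.03, CT8.76) and Ppara (0.51 ± 0.05, CT9.31) had the smallest p of that list, and Creb3l3 itself peaked at CT10.3.

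Of 12 regulators of eIF2alpha, 5 were called at 24 h, 3 at 12 h and 0 at 8 h, and the 12 h peaks of Eif2b3, Nck1 and Eif2b4 lay between 1.90 and 2.39 h. At 24 h this share was below, and that of the CREB3 and ATF family (6 of 11) near, the 52.7% of all genes. At 12 and 8 h, 7.13% and 2.13% of all genes were called. A single 12 h call, as in the lists that follow, was near the 12 h share. Among the regulators Eif2b3, Nck1 and Dnajc3, an inhibitor of PERK, peaked at CT14.9, CT18.3 and CT22.1 in the 24 h term. Of 14 genes that process the sensors and factors or act directly below them, 9 were called at 24 h, 1 at 12 h (Hspa5) and 3 at 8 h, with Map3k5, a kinase below IRE1alpha, at a 24 h amplitude of 0.55 ± 0.06 (CT9.66), and Rtcb, the ligase that joins the cut ends of Xbp1 mRNA, at 0.09 ± 0.01 (CT6.73). Of 11 further CREB3 and ATF family members, 6 were called at 24 h, 1 at 12 h (Creb3, 0.19 ± 0.03, peak at 2.03 ± 0.29 h) and 1 at 8 h (Crem, 0.18 ± 0.03, peak at 5.22 ± 0.24 h). At 24 h Crem and Atf2 had amplitudes of 0.35 ± 0.04 (CT22.9) and 0.18 ± 0.02 (CT4.82).

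**Figure D4:**
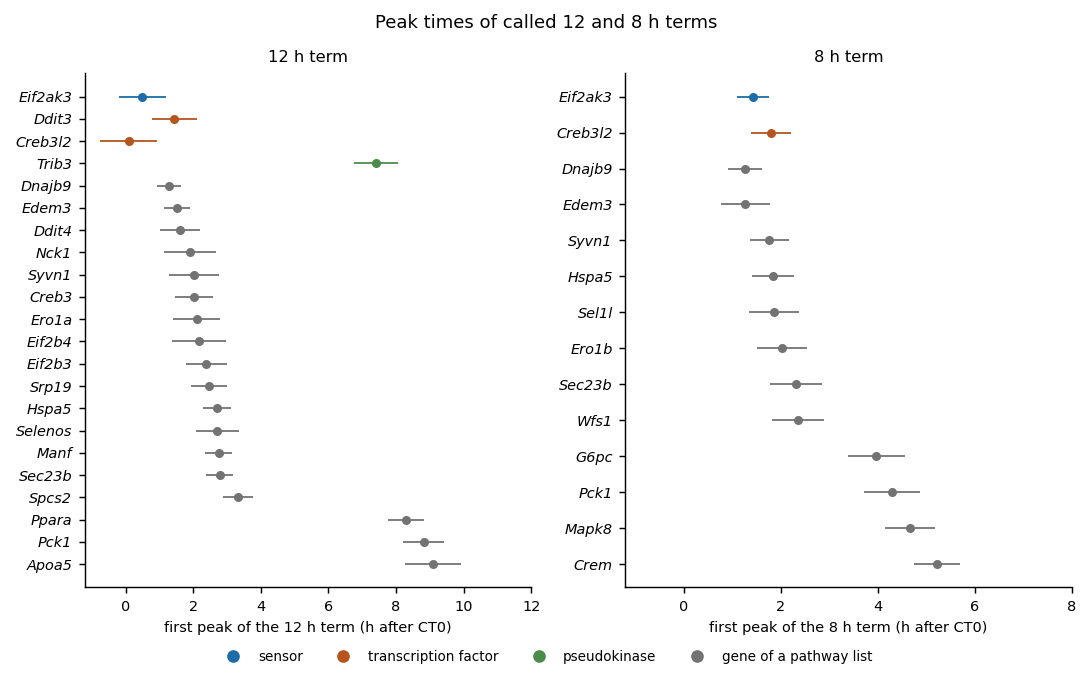
First peak of the called 12 h terms (left) and 8 h terms (right) in hours after CT0, with 95% intervals, for the sensors and factors and, in grey, for the genes of the pathway lists with the smallest p. Eif2ak3, Creb3l2 and Ddit3 peak between 0.09 and 1.45 h in the 12 h term, and Trib3 at 7.41 h near Ppara and Pck1.

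The genes most like each of them were sought among all 18194 by Pearson's r over the 48 detrended pools, as a description. For Eif2ak3 they were Alg2 (0.83), a mannosyltransferase of glycan synthesis at the ER, Txndc11 (0.82), a thioredoxin domain protein of the ER, and Ficd (0.74), the enzyme that modifies BiP. Within the set, Creb3l2 stood at 0.834 with Eif2ak3, above the 0.827 of Alg2. Creb3l2 gave Alg2 (0.84), Txndc11 (0.83) and Ampd2 (0.78). Ddit3 was nearest to Dnajb1 (0.86) and Hspa1b (0.79), which encode cytosolic heat shock proteins, and to Uspl1 (0.80). Trib3 was nearest to the clock repressor gene Nr1d1 (0.92), then to Fbxo21 (0.89) and Clec2h (0.88). For Ern1 the closest were Prrc2b, Ccdc6 and Lrp1 (0.92, 0.92 and 0.91), for Atf6 Desi1, Cgnl1 and Slc39a14 (0.82, 0.82 and 0.81), for Creb3l3 Eif3f, Lcat and Yipf3 (0.86, 0.85 and 0.84), and for Atf4 Pm20d2, Chka and Abraxas2, at the lower values of 0.65, 0.63 and 0.63.

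Whether the terms repeated was tested between the second and the first cycle. For the interaction of the 12 or 8 h pair with the cycle, limma called 0 of 18194 genes after adjustment, while 2 of the 10 genes at 12 h (Atf6 and Creb3l2) and 1 at 8 h (Xbp1) had an unadjusted p under 0.05, as had 12.6% and 7.01% of all genes. The 8 h amplitude of Eif2ak3 was 0.36 ± 0.07 in the second cycle and 0.37 ± 0.07 in the first, with peaks at 1.64 ± 0.24 and 1.21 ± 0.24 h. For Creb3l2 it was 0.58 ± 0.09 and 0.40 ± 0.09, with peaks at 2.05 ± 0.21 and 1.43 ± 0.30 h. Its 12 h amplitude was 0.18 ± 0.09 in the second cycle, with a peak at 10.8 ± 0.99 h, and 0.57 ± 0.09 in the first, with a peak at 0.47 ± 0.32 h, and this difference did not pass after adjustment (limma unadjusted p = 0.00474, adjusted p = 0.301). The 12 h amplitude of Ddit3 was 0.28 ± 0.09 in the second cycle and 0.38 ± 0.09 in the first, with peaks at 1.39 ± 0.58 and 1.49 ± 0.42 h, and the 24 h amplitude of Trib3 1.47 ± 0.14 and 1.55 ± 0.14.

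Read through the brightest probe set of each gene, the mean level passed the test as lower in the second cycle for 4 genes, all of them sensors. The difference of second minus first was -0.46 ± 0.11 for Ern1 (limma adjusted p = 0.00075), -0.34 ± 0.06 for Atf6 (0.00011), -0.31 ± 0.10 for Atf6b (0.00768) and -0.26 ± 0.07 for Eif2ak3 (0.00254), and no factor nor Trib3 passed. Trib3 (-0.26, limma adjusted p = 0.0955), Creb3l2 (-0.24, 0.064) and Creb3l3 (-0.13, 0.0582) were also lower, without passing. No other probe set of the 10 genes passed as lower. The next brightest of Ern1 (-0.02, limma adjusted p = 0.868) and the others of Atf6 (-0.09, 0.0776, and 0.02, 0.737) did not pass. Other probe sets of Xbp1 (0.16, limma adjusted p = 0.013) and Atf4 (0.22, 0.00976) and the dimmest of Eif2ak3 (0.02, 0.00188) passed as higher. With quantile normalization Atf6 and Ern1 were called, and Eif2ak3 (-0.15, limma adjusted p = 0.08) and Atf6b (-0.27, 0.0666) were not. Over all genes 17.4% were lower in the second cycle and 56.1% differed in either direction. Without CT60 to CT65, Atf6 (-0.26, adjusted p = 0.00657) and Ern1 (-0.23, adjusted p = 0.0294) were still called, and Eif2ak3 (-0.18, adjusted p = 0.0506) and Atf6b (-0.17, adjusted p = 0.168) were not. Without CT25 and CT46 the 4 sensors were called, and so was Trib3 (-0.32, adjusted p = 0.039). With pools 24 h apart paired, the same 4 sensors were called (16.2% of all genes were lower in the second cycle), and Eif2ak3 was lower in the second cycle in 21 of 24 pairs, Atf6 and Ern1 in 20 and Atf6b in 17. In the 18 pairs left without CT60 to CT65 (8.51% lower), limma called Atf6 (-0.25, adjusted p = 0.0152) and Eif2ak3 (-0.20, adjusted p = 0.0155), and Ern1 was not called (-0.24, adjusted p = 0.0614).

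The last pools were compared with those 24 h earlier. From CT60 to CT65 Ern1 read 2153 to 7606, against 6828 to 8926 at CT36 to CT41, a difference of -1.13 on the log2 scale. Creb3l3 read 16282.5 to 25091 at CT60 to CT65 and 27137 to 33256 at CT36 to CT41 (-0.59). The same difference was -0.77 for Creb3l2, -0.70 for Atf6b, -0.62 for Trib3, -0.60 for Atf6 and -0.44 for Eif2ak3, against -0.06 for Ddit3 and 0.01 for Xbp1 and Atf4. The median over all genes was 0.04. CT61 was the lowest of the 48 pools for Ern1, Eif2ak3, Creb3l2 and Creb3l3, and for 9.48% of all genes. The summed markers of stellate cells (5 of 5 measured) ran from 11659.8 at CT62 to 37099 at CT27 and moved with Ern1 at r = 0.72, with Trib3 at 0.57 and with Ddit3 at -0.46 over the 48 pools, and those of sinusoidal endothelial cells (6 of 6, 19786 to 31552) moved with Trib3 at r = -0.55 and with Atf6 at -0.41. Atf6 and the acinar sum, high in 2 pools, were at r = -0.42. Their part in these levels was not tested.

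The 24 h term differed between cycles in 2 genes, against 8.25% of all genes. Creb3l3 peaked at CT5.93 ± 1.12 h with an amplitude of 0.16 ± 0.05 in the second cycle and at CT12.4 ± 0.61 h with 0.29 ± 0.05 in the first (limma adjusted p of the interaction = 0.00196). For Atf6b the peaks were at CT3.11 ± 1.56 h in the second cycle and CT18.1 ± 1.26 h in the first (adjusted p = 0.0479). Neither passed without CT60 to CT65 (adjusted p = 0.969 for both).

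**Figure D5:**
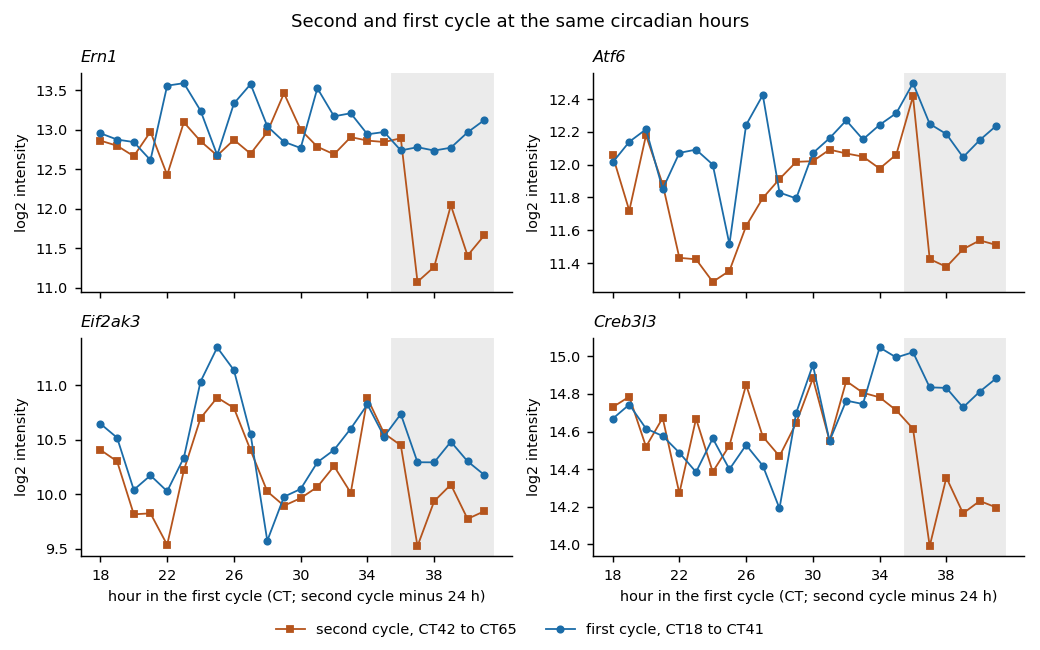
Log2 intensity of Ern1, Atf6, Eif2ak3 and Creb3l3 in the second cycle (squares, CT42 to CT65, drawn 24 h earlier) and the first cycle (circles, CT18 to CT41) at the same circadian hours; grey marks CT60 to CT65 and CT36 to CT41. In the grey hours the second cycle minus the first averages -1.13 in Ern1, -0.60 in Atf6, -0.44 in Eif2ak3 and -0.59 in Creb3l3.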

How the data were processed

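Expression was measured in 48 hourly liver pools, 1 Affymetrix array each, all in 1 group. Per the study's methods, array data were extracted with GCRMA, which corrects background, normalizes the arrays to each other and summarises probe sets. The labels name MAS5, for which the methods give present and absent calls. Which of these gave the deposited table is not settled: its intensities are on a linear scale, and the arrays do not share 1 distribution, with upper quartiles from 797 (CT61) to 1099 (CT27). Whether a constant was applied is not given in the sources used here; log2 differences do not depend on it. Quantile normalization was an alternative. Arrays have no read depth, and their number limits the precision.

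Values were taken to log2. Harmonic terms were fitted in limma 3.58.1 (R 4.3.3) with a linear trend, and standard errors of amplitudes and peak times came from the delta method with moderated variances. Intervals of peak differences used the residual correlation of both probe sets. For the cycles, the pairs interacted with the cycle, and a step replaced the trend for the means. Fisher's G-test used 23 Fourier frequencies, and the cosine fit, after COSOPT, 1000 scramblings of the pools and steps of 0.1 h, with Storey q-values and period classes of 20 to 30 h, 10 to 14 h and 7 to 9 h (bounds excluded). Python 3.11.15, numpy 2.4.6, pandas 2.3.3 and matplotlib 3.10.9 were used. The computations were tested on simulated data with known rhythms.

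Genes were named by rule: every member, and in each list the 3 called genes with the smallest p at 24 h and 12 h. The 3 genes outside the set most like each of the 8 members with a called term (all but Xbp1 and Atf6b) were also named. Genes named for an 8 h term alone were chosen after their values were seen. The members and lists were chosen with earlier results of these data known. Probe sets with 1 gene symbol (34958) were read, and those with several (932) or none (9211) stayed in the adjustment. Alternatives were no or a quadratic trend, other scales, a filter at a mean of 100, further pairs at 6 and 4.8 h or the pair alone, any probe set, Benjamini-Hochberg in place of Storey, and pools left out; leaving out CT25 and CT46, and pairing pools 24 h apart, were chosen after seeing the data. Promoter letters were read from RefSeq, GRCm38.p6, for 9 of the 10 genes.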

Additional observations from a re-analysis of the deposited data

Results flagged for a closer look

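The 24 h terms of 4 probe sets differed between the second and the first cycle by the interaction test in limma. Besides Creb3l3 (adjusted p = 0.00196) and Atf6b (adjusted p = 0.0479), these were the dimmest of the 4 probe sets of Xbp1 and the one of Atf6 with the middle mean. The Xbp1 probe set peaked at CT17.4 ± 0.87 h with an amplitude of 0.21 ± 0.05 in the second cycle and at CT7.28 ± 1.30 h with 0.14 ± 0.05 in the first (adjusted p = 0.00243), while the brightest probe set of the gene gave an adjusted p of 0.959. The Atf6 probe set peaked at CT2.79 ± 1.08 h with 0.13 ± 0.04 in the second cycle and at CT12.8 ± 1.64 h with 0.08 ± 0.04 in the first (adjusted p = 0.0248), while the brightest one gave 0.357. Without CT60 to CT65 none of the 4 was called, at adjusted p of 0.554 for the Xbp1 probe set and 0.969 for the other 3. Without CT25 and CT46 all 4 kept their calls.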

How the results depend on the processing

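The members called at 24 h numbered 7, and 2 or 1 in the series of every second pool from CT18 or CT19. At 12 h they numbered 4, and 0 in both of these series, and 1 (Ddit3) with the pair tested alone. At 8 h they numbered 2, and 0 in both series, and 1 (Eif2ak3) with the pair alone. At an unadjusted p under 0.05, Eif2ak3, Ddit3, Creb3l2 and Trib3 passed at 12 h in both series and Eif2ak3 and Creb3l2 at 8 h. These series hold 24 pools, fewer than the full one, and the pair alone leaves the other terms in the residual. With each pool left out in turn the counts were 6 to 8 at 24 h, 4 at 12 h and 2 to 3 at 8 h. The 24 h class by both tests held 2 genes, and 1 with linear values or Benjamini-Hochberg; the 12 h class held 1, and 0 with linear values. The genes whose 24 h term differed between cycles numbered 2, and 0 without CT60 to CT65 and 1 without the trend or with quantile normalization, and those whose mean differed 4, and 2 without CT60 to CT65 or with quantile normalization; the cause was not tested. The other alternatives left these counts within 1.5 times. For single genes and terms, 1684 of the values under an alternative stayed on their side of the threshold, 52 lost a call and 4 gained one. This tally leaves out the pair tested alone, the further pairs at 6 and 4.8 h and any probe set. With the pair alone, 5 of the 7 genes kept their 24 h call. The series of every second pool lost 11 calls (from CT18) and 12 calls (from CT19). Most of the values came from fits that left out a single pool, and terms not called in the full fit had no call to lose. With circadian hour as a block, pairing pools 24 h apart, the mean of 4 genes differed between cycles, and of 2 without CT60 to CT65. One pool per hour and signal near the floor limit the dim probe sets.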
